A study of Mus musculus with 4 samples.

Results

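The genes of the proteasome were examined for Eya1 occupancy in the embryonic kidney. They were all protein-coding genes of GENCODE release M21 (mouse genome build mm10) whose symbol begins with Psm, 1 letter from a to g and a number, which gave 50 of 21938 protein-coding genes. Of these, 19 encode the core particle, 17 the regulatory particle, 7 assembly chaperones (Psmd5, Psmd9, Psmd10, Psmg1, Psmg2, Psmg3 and Psmg4), 5 activators of the PA28 and PA200 families (Psme1, Psme2, the retrogene copy Psme2b, Psme3 and Psme4), and 1 the inhibitor PI31 (Psmf1). The remaining symbol, Psmc3ip, names a meiotic recombination factor and no proteasome protein.

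Eya1 is a transcriptional coactivator and phosphatase that reaches DNA through partner proteins. It was pulled down with anti-FLAG beads from kidneys of Eya1 HA-FLAG knockin mice at E13.5 (E for embryonic day), in which the endogenous protein carries the tags, on a mixed C57BL/6J and 129/Sv background. Each of the 2 Eya1 ChIP replicates used 80 pooled kidneys and gave 1 deposited list of peak positions, and the lists merged into 5493 intervals, of which 2424 were covered by both. The 1 input and the 1 IgG control were not analysed here, the lists hold no heights or counts, and sequencing depth is unknown.

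The 26S proteasome degrades proteins marked with ubiquitin. Its barrel-shaped core particle is built of outer alpha rings, which gate the entrance, and inner beta rings, which carry the protease sites. The regulatory particle caps the barrel. Its base holds a ring of AAA ATPases that unfold substrates, with scaffold subunits and a ubiquitin receptor, and its lid holds the deubiquitinase Psmd14, which removes the ubiquitin chain. Proteasome genes are known to be raised together by NFE2L1, a CNC-bZIP transcription factor that acts through antioxidant response elements (AREs) when proteasome activity falls short.

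Eya1 peaks lay at the promoters of 25 of the 50 genes. A promoter peak is a peak within 1 kb of the transcription start site (TSS) of a protein-coding transcript. In replicate 1, 21 genes had a promoter peak (42%, exact binomial 95% interval 28.2 to 56.8), where 20.0% of all protein-coding genes had one. In replicate 2, 15 genes had a promoter peak (30%, interval 17.9 to 44.6), beside 14.5% of all protein-coding genes. At 11 genes the peaks of both replicates overlapped, which is called a shared interval (22%, interval 11.5 to 36.0), beside 11.3% of all protein-coding genes, and the share for a peak in either list was 50% beside 23.2%. The intervals cover counting error over genes only.

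Of the shared genes, 6 are shown by sequence, to make visible where in the gene the narrower replicate 2 peaks lay. They are the 3 core and the 3 regulatory genes with the widest replicate 2 peaks among those with a shared interval. Each line gives 120 bases of mm10 from inside the replicate 2 peak, outside every annotated UTR and nearest the TSS, with coding bases in capitals and other bases in lower case.
Psma2, chr13:14613294-14613413, + strand: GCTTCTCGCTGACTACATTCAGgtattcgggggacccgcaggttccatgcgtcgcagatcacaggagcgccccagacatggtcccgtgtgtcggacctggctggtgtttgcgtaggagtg
Psma3, chr12:70974768-70974887, + strand: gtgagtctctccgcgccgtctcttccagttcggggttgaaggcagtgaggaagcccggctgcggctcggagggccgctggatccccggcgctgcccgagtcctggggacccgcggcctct
Psmb2, chr4:126677759-126677878, + strand: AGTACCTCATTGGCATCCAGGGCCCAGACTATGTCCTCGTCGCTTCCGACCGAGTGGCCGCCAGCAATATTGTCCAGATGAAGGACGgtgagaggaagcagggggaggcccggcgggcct
Psmd3, chr11:98682730-98682849, + strand: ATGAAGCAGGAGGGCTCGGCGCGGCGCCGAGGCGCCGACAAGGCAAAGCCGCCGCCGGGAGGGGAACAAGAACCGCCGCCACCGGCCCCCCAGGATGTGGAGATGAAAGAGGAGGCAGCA
Psmd14, chr2:61711874-61711993, + strand: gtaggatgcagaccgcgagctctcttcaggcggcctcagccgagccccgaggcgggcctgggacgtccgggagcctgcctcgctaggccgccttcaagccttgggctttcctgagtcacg
Psmc6, chr14:45329848-45329967, + strand: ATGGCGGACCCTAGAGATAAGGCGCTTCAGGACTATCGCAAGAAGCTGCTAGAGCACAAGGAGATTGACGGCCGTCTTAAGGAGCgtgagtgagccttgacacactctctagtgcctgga

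The 6 stretches began 54 to 180 bp into the gene. That of Psma2 held the last 22 coding bases of a first exon and ran on into the intron, that of Psmb2 crossed from coding sequence into the intron after 87 coding bases, that of Psmc6 ran after 85 coding bases into sequence that another transcript holds as exon, and that of Psmd3, with 120 of 120 coding bases, lay in the first coding exon and began at its start codon. Those of Psma3 and Psmd14 held 0 coding bases. The 6 stretches were 54.2 to 71.7% G and C and held 6 to 13 CpG dinucleotides.

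**Figure D1:**
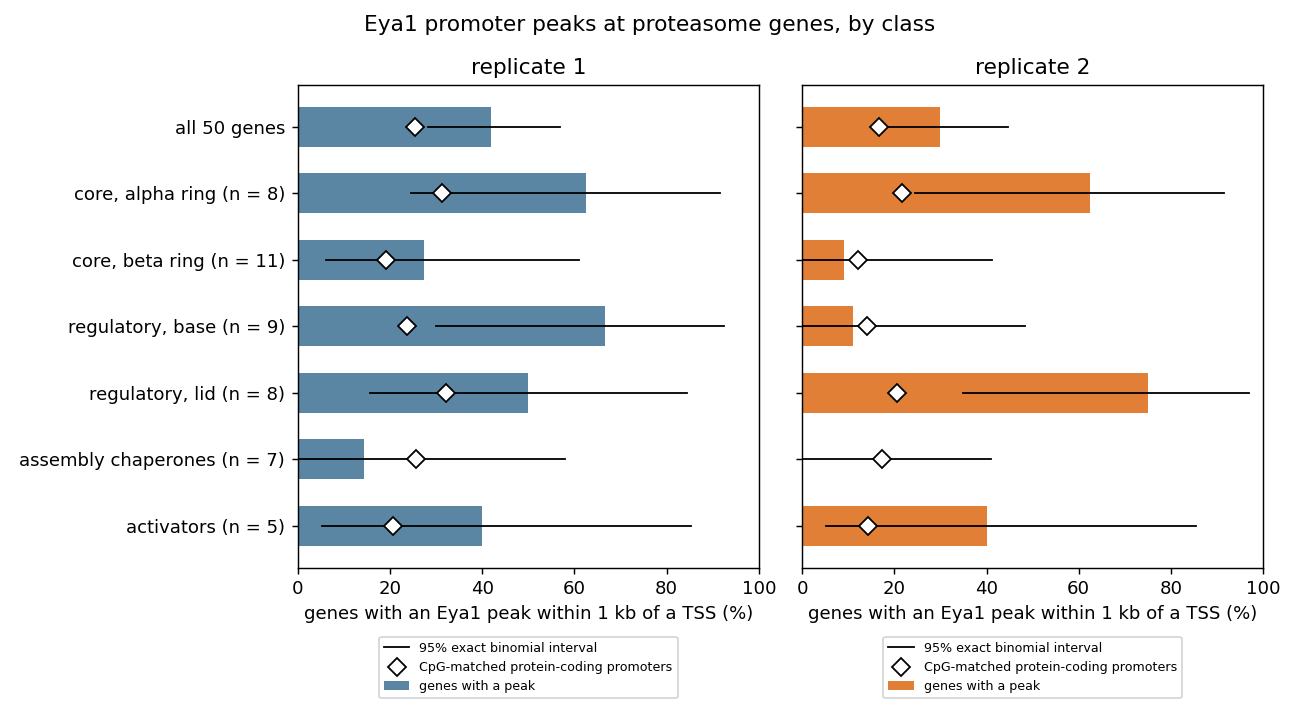
Share of proteasome genes with an Eya1 peak within 1 kb of a TSS (x axis, percent), by class, with 1 panel per replicate. Bars are the share, lines the exact binomial 95% interval and diamonds the CpG-matched share of other protein-coding promoters, and the bar of all 50 genes reaches 42% in replicate 1 and 30% in replicate 2.

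Promoters rich in CpG dinucleotides more often had a peak in each list, and proteasome promoters hold many of them. Their median was 57.5 CpGs within 500 bp on either side of the representative TSS (range 16 to 128), beside 43 for all protein-coding genes and 76 for those with a peak. The shares were therefore set beside a CpG-matched share, which is the share that the 50 genes would have at the peak rates of other protein-coding genes in the same of 20 CpG bins. It was 25.4% in replicate 1 and 16.6% in replicate 2, below the observed 42% and 30%. The genes exceeded it by 16.6 percentage points in replicate 1 and 13.4 in replicate 2, a mean of 15.0 ± 2.29 (SD, n = 2). For shared intervals the CpG-matched share was 12.6%, beside the observed 22%. The intervals of the observed shares began above the CpG-matched value in both lists, and for shared intervals they included it. When promoters were matched on the CpG observed/expected ratio in place of the count, the matched shares were 29.8% and 20.8%, inside the intervals in both lists, and the mean difference was 10.7 ± 2.097 percentage points (SD, n = 2). When a peak had to cover a TSS, the mean difference was 7.82 ± 8.06 (SD, n = 2), smaller than its spread. With 2 lists no test over replicates was run.

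Within the core particle the rings are given apart. Of the 8 alpha ring genes, 6 had a peak in either list (75%, interval 34.9 to 96.8, CpG-matched 35.7%), with 5 in replicate 1 and 5 in replicate 2. The shared genes were Psma2, Psma3, Psma6 and Psma7, while Psma4 had a peak in replicate 1 alone and Psma1 in replicate 2 alone. The alpha ring genes without a peak were Psma5 and Psma8, the latter a subunit of the testis. Of the 11 beta ring genes, 3 had a peak (27.3%, interval 6.02 to 61.0, CpG-matched 22.3%), which were Psmb2 in both lists, and Psmb1 and Psmb5 in replicate 1 alone. Psmb5 carries the chymotrypsin-like site, the main target of proteasome inhibitors. The beta ring genes without a peak were Psmb3, Psmb4, Psmb6 and Psmb7 of the standard ring and Psmb8, Psmb9, Psmb10 and Psmb11. The intervals of the rings overlap, and a difference between the rings was not tested.

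The last 4 of these, together with Psma8, are made in particular tissues or after interferon. Psmb8, Psmb9 and Psmb10 are the catalytic subunits of the immunoproteasome and Psmb11 is that of the thymoproteasome. A peak was listed at 0 of these 5 genes in both replicates (exact binomial 95% interval 0 to 52.2%). Their promoters were poorer in CpG, with a median of 33 (range 16 to 66), and their CpG-matched share for a peak in either list was only 15.0%. Without them, 9 of the 14 core genes of the standard proteasome had a peak in either list (64.3%, CpG-matched 32.6%), 6 of 7 in the alpha ring (interval 42.1 to 99.6%) and 3 of 7 in the beta ring (interval 9.90 to 81.6%).

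Of the 17 regulatory particle genes, 13 had a peak in either list (76.5%, CpG-matched 31.9%), with 10 in replicate 1 and 7 in replicate 2. The base and the lid are given apart. Of the 9 base genes, 6 had a peak in replicate 1 (66.7%, interval 29.9 to 92.5, CpG-matched 23.6%). In replicate 2, 1 of the 9 did (11.1%, interval 0.281 to 48.2, CpG-matched 14.1%). Those with a peak were the ATPases Psmc3, Psmc4 and Psmc6, the scaffold subunits Psmd1 and Psmd2, and the ubiquitin receptor Psmd4, of which Psmc6 had a shared interval. The ATPases Psmc1, Psmc2 and Psmc5 had none. Of the 8 lid genes, 4 had a peak in replicate 1 (50%, interval 15.7 to 84.3, CpG-matched 32.1%). In replicate 2, 6 of the 8 did (75%, interval 34.9 to 96.8, CpG-matched 20.6%). The base share was above the lid share in replicate 1 and below it in replicate 2, so the lists gave no common direction. A difference between base and lid was not tested. The lid genes Psmd3, Psmd11 and Psmd14 were shared, Psmd7 had a peak in replicate 1 alone, Psmd6, Psmd8 and Psmd12 had one in replicate 2 alone, and Psmd13 had none. The base minus its CpG-matched share was 43.1 and −3.02 percentage points in the replicates, so its mean of 20.0 ± 32.6 (SD, n = 2) was smaller than the spread.

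The regulatory particle share exceeded the core particle share by 16.7 percentage points in replicate 1 and 9.60 in replicate 2, a mean of 13.2 ± 5.04 (SD, n = 2). The genes of restricted expression carried that difference: against the 14 core genes of the standard proteasome the difference was 1.68 and −1.68 percentage points, a mean of 0 ± 2.38 (SD, n = 2).

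The other classes were less uniform. Of the 5 activator genes, 2 had a peak in either list (40%, interval 5.27 to 85.3, CpG-matched 23.9%). Psme3, which encodes the nuclear PA28 gamma, and Psme4, which encodes PA200, had shared intervals. Psme1, Psme2 and Psme2b, of which the first pair forms the interferon-inducible PA28, had no peak. Psme3 and Psme4 held 72 and 83 CpGs, and Psme1, Psme2 and Psme2b held 33, 37 and 16. Of the 7 assembly chaperones, Psmg2 alone had a peak, in replicate 1 (14.3%, CpG-matched 25.5%). The inhibitor gene Psmf1 and Psmc3ip had none.

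Where a gene had a peak, it lay at the start of transcription and mostly just inside the gene. Psmd3, a scaffold of the lid, had a replicate 2 peak at chr11:98682575-98683065, which was 491 bp wide and began 21 bp after the TSS, inside a replicate 1 peak of 1184 bp at chr11:98682093-98683276. Psmd14 had peaks at chr2:61711716-61712168 (453 bp) and chr2:61711708-61712472 (765 bp) in replicates 2 and 1, which began 22 and 14 bp from the TSS. Psma2 had a replicate 2 peak of 366 bp at chr13:14613294-14613659, 54 bp from the TSS, and a replicate 1 peak of 700 bp at chr13:14613227-14613926 that covered the TSS. These 3 replicate 2 peaks were the widest at any of the 50 genes.

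The other shared core peaks were narrower in replicate 2. Psma3 had 271 bp at chr12:70974756-70975026, 73 bp from the nearest coding TSS, inside 984 bp at chr12:70974640-70975623. Psmb2 had 242 bp at chr4:126677759-126678000, 129 bp from the TSS, inside 1079 bp at chr4:126677199-126678277. The peaks of Psma6 and Psma7 lay deeper in the gene. Psma6 had 193 bp at chr12:55399069-55399261, 294 bp from the TSS, inside 1288 bp at chr12:55398251-55399538. Psma7 had 186 bp at chr2:180041919-180042104, 306 bp from the TSS, inside the widest replicate 1 peak of all these genes, with 1912 bp at chr2:180041621-180043532.

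The remaining shared peaks were those of an ATPase, a lid subunit and the activators. Psmc6 had 223 bp at chr14:45329834-45330056, 46 bp from the TSS, inside 817 bp at chr14:45329721-45330537. Psmd11 had 193 bp at chr11:80428965-80429157, 340 bp from the TSS, inside 903 bp at chr11:80428521-80429423. At the activators the replicate 1 peaks were among the 3 widest. Psme3 had 198 bp at chr11:101316185-101316382, which covered the TSS, inside 1837 bp at chr11:101315773-101317609. Psme4 had 2 replicate 2 peaks, of 200 bp at chr11:30771893-30772092 and 213 bp at chr11:30772250-30772462, inside 1 replicate 1 peak of 1392 bp at chr11:30771353-30772744. In all, 12 of 12 shared replicate 2 peaks at these genes lay wholly inside the replicate 1 peak. The share over other shared promoter peaks is not given here. Promoter peaks had a median width of 1103 bp in replicate 1 and 200 bp in replicate 2.

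**Figure D2:**
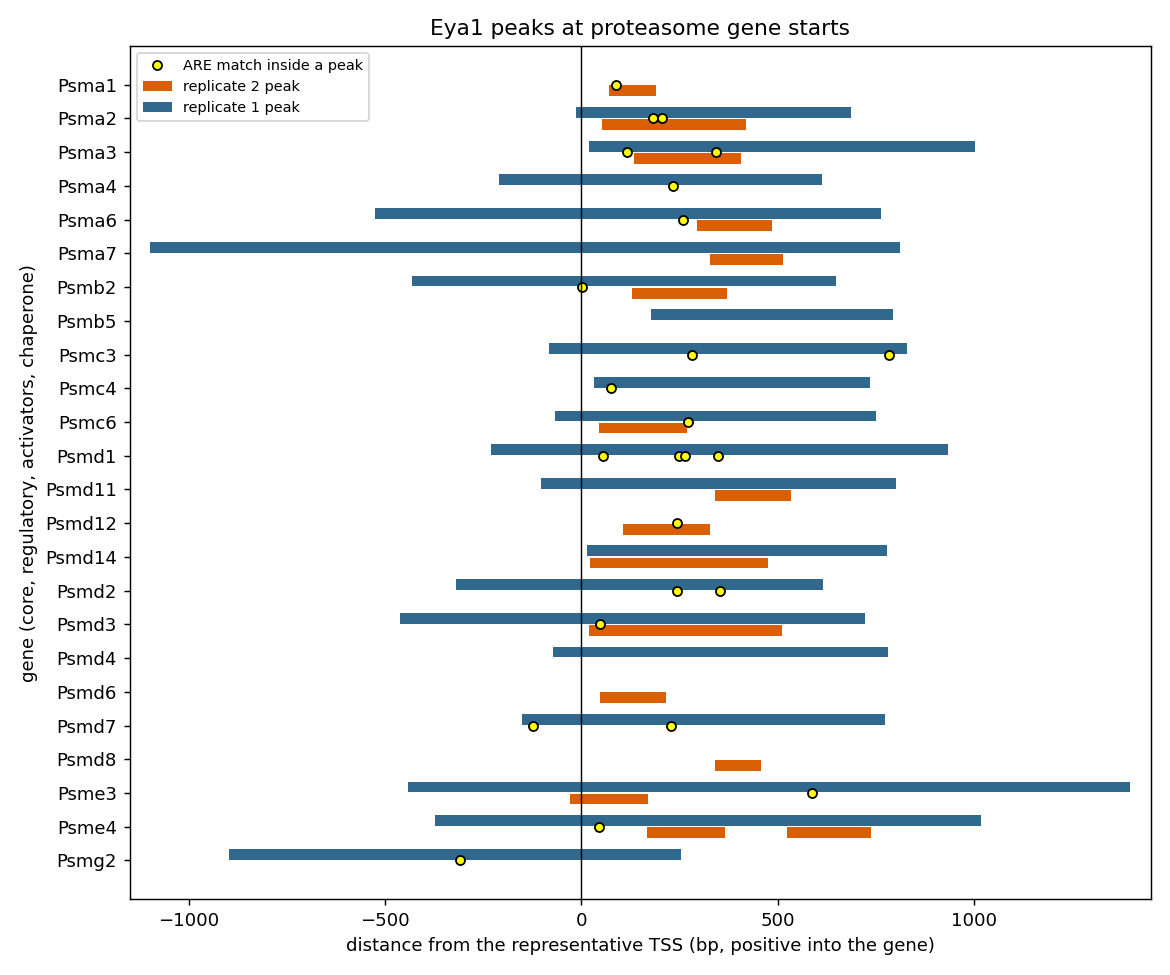
Eya1 peaks at 24 proteasome genes by distance from the representative TSS (x axis, bp, positive into the gene), with replicate 1 in blue and replicate 2 in orange, and matches to the ARE motif inside a peak as yellow circles. Psmb1 is left out, since its peak lies at an alternative TSS. The replicate 2 peaks lie to the right of the TSS, apart from that of Psme3, which covers it.

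The midpoint of the peak nearest the TSS lay downstream of it at 18 of 20 genes in replicate 1, with a median of +338.5 bp (range −323 to +510), and at 15 of 15 in replicate 2, with a median of +249 bp (range +70 to +438). In replicate 1, 16 of 20 peaks covered the representative TSS (80%), beside 80.2% at other protein-coding genes with a peak. In replicate 2, 14 of 15 lay wholly downstream of the representative TSS (93.3%), beside 75.2% at other protein-coding genes. Where no other TSS lay within 1 kb, these replicate 2 shares were 91.7% and 82.3%. Peaks at Psma1 and Psme4 in replicate 2 covered another coding TSS. Over all other protein-coding genes with a peak the medians were +282 and +234.5 bp, with 81.9 and 82.9% downstream. Where no other TSS lay within 1 kb, the proteasome genes had medians of +350 and +248.5 bp, with 14 of 14 and 12 of 12 downstream, beside +322 and +257 bp and 91.1 and 90.4% for other genes. Of the 3854 bp in the replicate 2 peaks, 46.6% were intron, 24.96% coding sequence, 18.8% UTR and 0.727% lay outside the gene, whereas 25.5% of the 21792 bp in the replicate 1 peaks lay outside it.

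The 1 kb limit decided little. The peaks just inside it were those of replicate 2 at Psmd11 and Psma7, 340 and 306 bp from a coding TSS, and no peak lay between 340 bp and 1 kb. Just outside it, the nearest peaks to Psmc2, Psmb3 and Psmb11 lay 1240, 2252 and 3588 bp away in replicate 1. A peak can also belong to a neighbour. Another gene's TSS lay within 1 kb of 15 of the 50 genes, and 7 of the 15 had a peak, including Psma2 beside Mrpl32, Psma7 beside Ss18l1 and Psmg2 beside Cep76. The Psmb1 peak, of 847 bp, was 60 bp from an alternative TSS of Psmb1 and 1513 bp from its representative TSS, and the TSS nearest its midpoint was that of Tbp. Among the 35 genes with no such neighbour, 18 had a peak in either list (51.4%, CpG-matched 28.2%).

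Peaks at proteasome genes were not wide. Their 21 replicate 1 peaks were 618 to 1912 bp wide, with a median of 924 bp, beside 1103 bp over all 3963 promoter peaks of that list, and 14 of the 21 lay below that value. The 16 replicate 2 peaks were 117 to 491 bp wide, with a median of 206.5 bp, beside 200 bp over all 3416 promoter peaks. Core and regulatory peaks had medians of 915.5 and 907 bp in replicate 1 and 217.5 and 221 bp in replicate 2. Peaks in 1 list alone had medians of 882 bp in replicate 1 and 143.5 bp in replicate 2, and those in shared intervals had medians of 1079 and 218 bp. Over all promoter peaks the values were likewise 957 and 161 bp for peaks in 1 list and 1216 and 220 bp for shared ones.

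**Figure D3:**
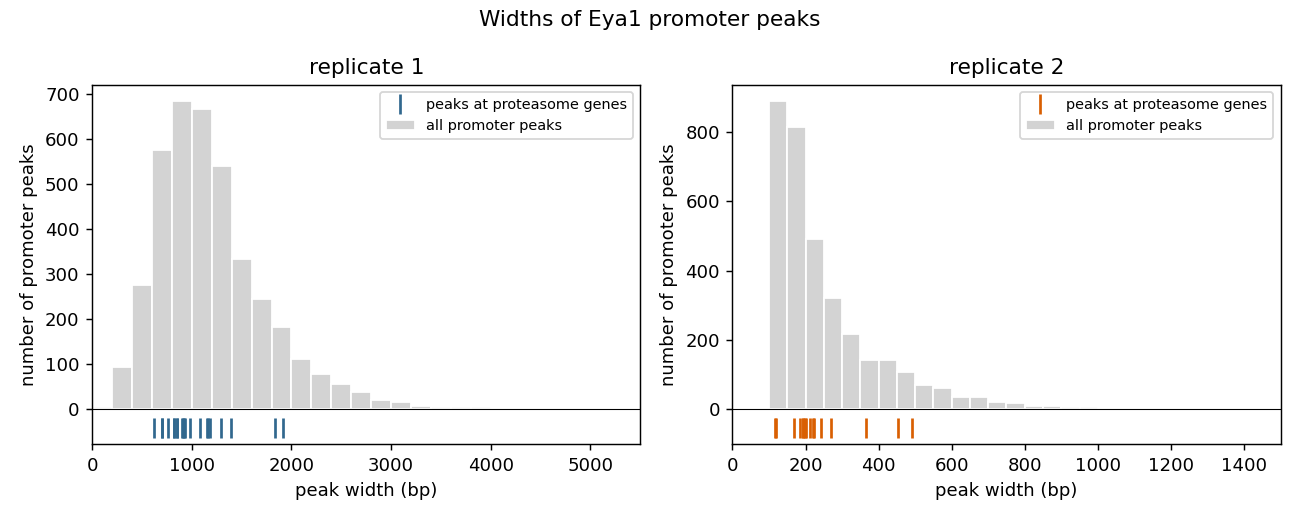
Widths of Eya1 promoter peaks (x axis, bp) in replicate 1 (left) and replicate 2 (right), with the number of all promoter peaks as grey bars and each peak at a proteasome gene as a coloured tick below the axis. The ticks lie between 618 and 1912 bp in replicate 1 and between 117 and 491 bp in replicate 2, within the range of the grey bars.

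Matches to the ARE were frequent inside the peaks of these genes. The motif searched was TGACNNNGC, on both strands. It was found in 15 of 21 replicate 1 peaks (71.4%), beside 40.2% of all promoter peaks of that list and 39.7% of the 3128 promoter peaks of the same range of widths. In replicate 2 it was found in 5 of 16 peaks (31.2%), beside 10.5% of all promoter peaks and 9.17% of the 3096 in the same range of widths. Per kilobase, the peaks of the proteasome genes held 1.06 matches in replicate 1 and 1.56 in replicate 2, beside 0.457 and 0.447 over all promoter peaks. Of the 23 matches in replicate 1, 20 began downstream of the TSS, and of the 6 in replicate 2, 6 did, from +45 to +339 bp. Only matches inside peaks were counted, and the peaks themselves lay mostly downstream. The nearest peak had its midpoint downstream at 18 of 20 genes in replicate 1 and lay wholly downstream at 14 of 15 in replicate 2. The side of the matches was therefore largely set by the peaks. The genes with a match in a replicate 1 peak were Psma2, Psma3, Psma4, Psma6, Psmb2, Psmc3, Psmc4, Psmc6, Psmd1, Psmd2, Psmd3, Psmd7, Psme3, Psme4 and Psmg2. In replicate 2 they were Psma1, Psma2, Psma3, Psmd3 and Psmd12.

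The ARE was 1 of 9 motifs searched in the peaks. The ETS motif CCGGAAG was also more frequent than over all promoter peaks, in 10 of 21 replicate 1 peaks (47.6%, beside 31.4%) and 3 of 16 replicate 2 peaks (18.8%, beside 6.79%). The SP motif GGGCGGG was less frequent, in 12 of 21 (57.1%, beside 77.3%) and 2 of 16 (12.5%, beside 31.9%). Apart from the ARE, these shares were not set beside peaks of the same widths, and none was matched on CpG. The replicate 1 peaks were narrower than all promoter peaks (median 924 beside 1103 bp). Proteasome genes with a peak held fewer CpGs than all protein-coding genes with one (median 59 beside 76). Whether this bears on the SP shares was not tested. The NF-Y motif CCAAT was in 12 of 21 (57.1%, beside 62.4%) and 2 of 16 (12.5%, beside 10.4%), and the E-box CACGTG in 6 of 21 (28.6%, beside 23.2%) and 0 of 16 (beside 2.84%). The remaining motifs, those of YY1, NRF1, Six2 and REST, were each in at most 3 peaks of a list.

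The matches in replicate 2 peaks and those of the form TGACTCAGC are printed here, to show the sequence around them. Each line gives 29 bases of mm10 read on the strand of the match, with the 9 matching bases in capitals.
Psmd7, chr8:107588221-107588249, + strand: ggcgcgcccgTGACTCAGCagccctgcgc
Psmd2, chr16:20651881-20651909, - strand: gagccagcagTGACTCAGCccaaggcctc
Psmd12, chr11:107479713-107479741, - strand: ctccacgccgTGACTCAGCccctggcgcc
Psmd1, chr1:86064853-86064881, - strand: tcacccgcccTGACTCAGCtaaacgccgg
Psma3, chr12:70974950-70974978, - strand: gagactaaagTGACTCAGCacccggggct
Psma2, chr13:14613409-14613437, + strand: gagtgcacggTGACGGAGCtggactcgta
Psma2, chr13:14613433-14613461, - strand: gcacggaacaTGACTCTGCaaagctacga
Psma1, chr7:114276015-114276043, + strand: agcgacaaccTGACCCAGCagcggacaca
Psmd3, chr11:98682589-98682617, - strand: ggccgcacgaTGACCGAGCagctgcaaac

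The first 5 lines were chosen for sharing all 9 bases, and the other matches in these peaks differ at the free positions of the motif. These 5 began +225, +239, +239, +244 and +339 bp from the TSS of Psmd7, Psmd2, Psmd12, Psmd1 and Psma3. Of 21938 protein-coding genes, 113 held TGACTCAGC in the 500 bp after the TSS, and 5 of the 50 proteasome genes did (10%). This form was picked from the matches inside the peaks, and the window after the peak positions were seen, so the count is a description. The match lay inside an Eya1 peak at all 5 genes, Psma3 in both lists, Psmd1, Psmd2 and Psmd7 in replicate 1 and Psmd12 in replicate 2. That was largely set by picking the form from matches inside peaks. Among other protein-coding genes the form was rare both with a peak (0.355%) and without one (0.535%).

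With the looser motif, 20 of the 50 genes held a match in the 500 bp after the TSS (40%), beside 19.1% of all protein-coding genes and a CpG-matched share of 20.6%. In the 250 bp before the TSS the shares were 12%, 10.1% and 10.9%, with a match at 6 of the 50 genes. The windows differ in length and were set after the values were seen. With so few genes, a difference before the TSS was not resolved. Of the 20 genes, 15 had an Eya1 peak in either list and 5 had none, and those without were Psma5, Psma8, Psmb11, Psmc5 and Psmf1. Over all other protein-coding genes the match was nearly as frequent with a peak (19.6%) as without (18.9%).

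**Figure D4:**
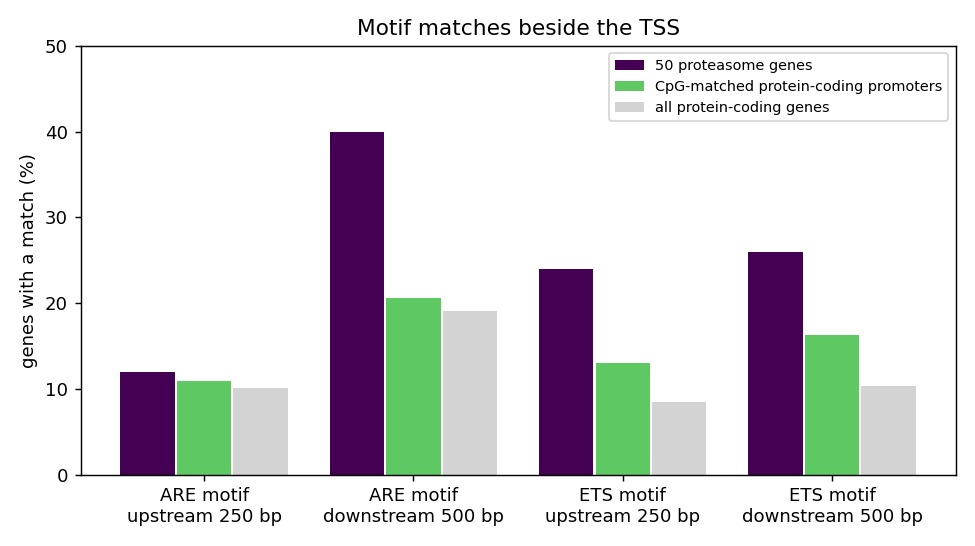
Share of genes with a match (y axis, percent) to the ARE motif or the ETS motif in the 250 bp before or the 500 bp after the TSS, for the 50 proteasome genes, their CpG-matched share and all protein-coding genes. The tallest bar is the ARE match after the TSS, at 40% of proteasome genes beside 20.6% when matched on CpG.

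The promoters themselves, taken as 250 bp before to 50 bp after the TSS, were searched for the same motifs. CCGGAAG, the core recognised by ETS factors, lay in 18 of the 50 (36%), beside 11.2% of all protein-coding promoters and a CpG-matched share of 17.7%. It was found at 10 of 17 regulatory genes, which were Psmc1, Psmc2, Psmc3, Psmc6, Psmd2, Psmd4, Psmd6, Psmd7, Psmd11 and Psmd12, and at 2 of 19 core genes, Psma6 and Psma8. Of the 18 genes, 11 had an Eya1 peak in either list and 7 had none. Among the 2430 other protein-coding promoters with CCGGAAG, 38.7% had a peak, beside 23.2% of all protein-coding genes. Neither share was matched on CpG, and promoters rich in CpG more often had a peak. The E-box CACGTG was at 5 core genes (Psma4, Psma8, Psmb2, Psmb3 and Psmb10) and 0 regulatory genes among 7 in all (14%, beside 7.72% of all promoters and 10.4% CpG-matched).

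Other motifs were near their CpG-matched shares or rare. The SP motif GGGCGGG lay in 24 promoters (48%, beside 33.5% of all and 44.7% CpG-matched) and the NF-Y motif CCAAT in 18 (36%, beside 38.6 and 39.99%). AAGATGGCG, recognised by YY1, lay in 4 (8%, beside 1.85% of all and 2.81% CpG-matched), those of Psmb6, Psmc5, Psmd7 and Psmd11, and GCGCATGCG, recognised by NRF1 (nuclear respiratory factor, which is not NFE2L1), in 2 (4%, beside 2.51 and 3.44%), those of Psma2 and Psmg1. The homeodomain partners of Eya1, Six2 among them, recognise TCAGGTT, which was in 0 of the 50 promoters and in 3.92% of all (3.45% CpG-matched). The RE1 element of the repressor REST was searched with up to 2 mismatches allowed, the other motifs with 0. It was in 0 promoters, beside 3.01% of all (3.21% CpG-matched). In the replicate 1 peaks RE1 was matched at Psma4, Psmb1 and Psme3 (3 of 21, 14.3%, beside 14.5% of promoter peaks), and in replicate 2 in 0 of 16 peaks, beside 6.38%. A match says only that these letters, for RE1 with up to 2 of them changed, are in the window, and no match only that they are not.

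Genes with a peak reached higher CpG counts. The median was 59 CpGs over the 25 genes with a peak in either list (range 43 to 128) and 49 over the 25 without (range 16 to 70). The 7 genes above 70 CpGs all had a peak, and were Psma3, Psma4, Psma7, Psmd11, Psme3, Psme4 and Psmg2. The limit of 70 is the highest count without a peak, so that all 7 had one follows from it. Among other protein-coding genes in the bins from 71 CpGs up, 43.1 to 64.5% had a peak in either list. Among the standard subunits alone the medians were close, at 58.5 over the 22 with a peak (range 43 to 128). For the 9 without (Psma5, Psmb3, Psmb4, Psmb6, Psmb7, Psmc1, Psmc2, Psmc5 and Psmd13) it was 59 (range 40 to 70). The genes with a shared interval had a median of 68 (range 50 to 128). The highest count was that of Psma7, with 128.

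**Figure D5:**
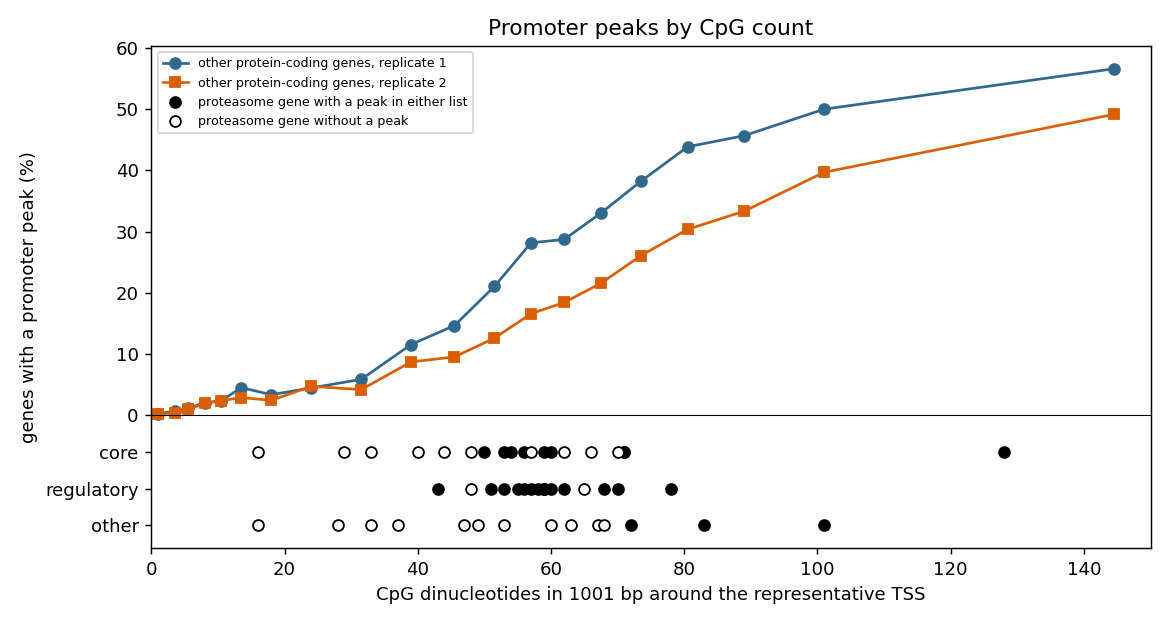
Share of other protein-coding genes with a promoter peak (y axis, percent) by CpG count within 500 bp of the TSS (x axis) in replicates 1 (blue) and 2 (orange), over 20 bins, with each proteasome gene as a circle below the axis, filled where it has a peak in either list. Apart from Psma7 at 128, the standard subunits lie between 40 and 78 CpGs, with filled and open circles side by side up to 70 and filled ones alone above it.

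The wider pathway was looked at through a list of genes that make, feed or regulate the proteasome. The list held 21 protein-coding genes that are reported here, and Paaf1 had no match. Eya1 promoter peaks lay at 14 of the 21 in replicate 1 (66.7%, CpG-matched 41.1%), 12 in replicate 2 (57.1%, CpG-matched 31.1%) and 10 in shared intervals (47.6%, CpG-matched 24.9%). Of the 6 genes around the transcriptional control of the proteasome, 5 had a peak in either list (83.3%, CpG-matched 46.6%). Nfe2l1 had one in replicate 1 alone, of 1471 bp. Nfe2l2, which encodes the related factor NRF2, had peaks of 1988 and 617 bp in replicates 1 and 2. Ngly1, the deglycosylase, and Vcp, the AAA ATPase, which both act on NFE2L1 protein, and Akirin2, a factor for nuclear import of proteasomes, had shared intervals, and Ddi2, the protease that cleaves NFE2L1, had no peak.

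Of the shuttle receptors, which bring ubiquitinated proteins to the proteasome, 4 of the 4 reported had a peak in either list, where their CpG-matched share was 57.9%, with Rad23b and Ubqln1 shared, Ubqln2 in replicate 1 alone and Ubqln4 in replicate 2 alone. Both assembly genes outside the symbol rule had one (CpG-matched 47.6%), Ecpas shared and Pomp in replicate 1 alone. Of the 5 bound proteins, 2 had one (40%, CpG-matched 49.7%): the subunit Sem1 and the deubiquitinase Usp14 were shared, and Adrm1, Uchl5 and Ube3c had no peak. Among the 4 ubiquitin genes reported, 2 had one (50%, CpG-matched 33.3%): Rps27a was shared, Ubb had peaks in both lists that did not overlap, and the activating enzymes Uba1 and Uba6 had none.

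Proteasome genes were set beside 2 other large complexes found by symbol. Of 83 cytosolic ribosomal protein genes, 54 had a peak in either list (65.1%, CpG-matched 35.6%), and of 78 mitochondrial ribosomal protein genes, 30 did (38.5%, CpG-matched 31.1%). The proteasome genes, at 50% beside 29.3%, lay between them. The interval of the proteasome genes, 35.5 to 64.5%, overlaps that of the cytosolic set (53.8 to 75.2%) and that of the mitochondrial set (27.7 to 50.2%). The place of the proteasome genes relative to either set was not tested. The intervals of the cytosolic and mitochondrial sets do not overlap each other, and the cytosolic share was the higher.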

How the data were processed

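Eya1 ChIP-seq peaks of 2 replicates were analysed, with groups from the sample titles. The study's methods give alignment to mm10 with Bowtie and peak calling with MACS against the input or the IgG control, at more than 1 cutoff, while the submitters' processing notes list HISAT2. The authors deposited start and end positions alone, so the unit of each list is other than a score or count, and the cutoff and control behind each list are not given in the sources used here. Peak widths depend on such settings, so each list was described on its own.

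The 50 genes, the pathway list, the motifs and the comparisons were chosen with earlier results of these data known. Some genes of the pathway list are not reported here and were left out of its counts. TSSs were those of protein-coding transcripts in GENCODE M21, and mitochondrial genes and the 11 mitochondrial peaks were left out. The representative TSS was that of the APPRIS principal transcript. Peaks were shared at 1 bp of overlap. CpG-matched shares were weighted over 20 bins of the CpG count, with the 50 genes left out of the reference. Every gene was named with its lists, and positions were given for those with a shared interval. Windows of 500 bp after and 250 bp before the TSS and the motif TGACTCAGC were added after the values were seen. Sequences came from the GRCm38 genome of RefSeq, which is the assembly of mm10. Intervals are exact Clopper-Pearson 95% intervals. No test was run, because the genes of a list are not replicates. Python 3.11.15, numpy 2.4.6, scipy 1.17.1 and pysam 0.24.0 were used, and the calculations were tested on simulated data.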

Additional observations from a re-analysis of the deposited data

How the results depend on the processing

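Of 52 alternative values for the 8 main results, other than leaving out a replicate, 41 stayed within the limits set (1.5 times a count, 1 SD of a mean, the 95% interval of a median) and 11 moved. A change of direction was defined only for the differences between shares, and 0 of their means changed sign. Requiring a peak to cover a TSS left 3 genes in replicate 2, where peaks lie inside the gene, and moved the difference from the CpG-matched share to 7.82 ± 8.06 percentage points and the regulatory minus core difference to 8.05 ± 18.8 (SD, n = 2). Keeping only peaks no narrower than their list's median left 8 genes in replicate 1, 5 with a shared interval and 14 in either list. Requiring 50% of both peaks to overlap left 2 shared genes, since replicate 2 peaks are narrower. The difference from the CpG-matched share was 10.7 percentage points when matched on the CpG observed/expected ratio and 19.5 over genes with no other TSS within 1 kb. The regulatory minus core difference was 5.66 percentage points with particles assigned by symbol letter and 0 without the restricted core subunits. Leaving out 1 replicate in turn gave 15 to 21 genes with a peak in either list, 13.4 to 16.6 percentage points over the CpG-matched share and 9.60 to 16.7 for regulatory minus core. No paired analysis was possible because replicate numbers occur in the Eya1 group alone. Depth and peak height are unknown, so a gene without a peak may lie below the peak caller's cutoff.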
